A study of Mus musculus with 39 samples.

Results

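Socs3 and 7 other genes of cytokine receptor signalling through JAK kinases and STAT factors are described here, 8 of the 18193 genes that the arrays measured. The 8 genes are the inhibitors Socs3 and Socs2, the transcription factor Stat3, the kinases Jak1 and Jak2, and the receptor chains Il6st, Lifr and Cntfr. They were chosen by name, and Socs3 heads the list because of its genotype difference on these same arrays. Its values are therefore a description, with no test, and the other 7 genes are tested. Each gene was read from its brightest probe set (by the mean of all arrays) among the 2 to 6 probe sets annotated to it alone, 27 probe sets in all.

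The cells were photoreceptors, taken from the retina by cell sorting on green fluorescence. A GFP transgene under the Nrl promoter marks them, and both genotypes carry it. Nrl is the transcription factor that commits photoreceptor precursors to the rod fate. In Nrl-ko-Gfp mice (ko), which carry the Nrl knockout, the labels describe the sorted cells as transformed S-cones. In Wt-Gfp mice (wt), which are wild type at Nrl, they are rod precursors and, later, rods. RNA was amplified and read on Affymetrix mouse 430 2.0 arrays at embryonic day 16 (E16), at 2, 6 and 10 days after birth (P2, P6, P10) and at 4 weeks, on 3 arrays for ko E16 and 4 for each other group, 39 in all. Values are log2 signals, so a difference of 1 is a 2-fold change. Nothing in the labels states that replicate arrays are separate animals, so p-values measure the spread between arrays, which may be technical. The amount of RNA per cell and the share of cells that carry it cannot be told apart in such samples.

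Cytokines of the interleukin-6 family, among them LIF and CNTF, bind receptors built from the shared chain gp130 (Il6st) with the LIF receptor chain Lifr and, for CNTF, the attachment chain Cntfr. The receptors activate JAK kinases, which phosphorylate STAT3. STAT3 then turns on target genes including Socs3, whose protein binds gp130 and the kinases and shuts the signal off. In the mouse retina, CNTF and LIF are known to hold back rod differentiation of young photoreceptor precursors, and Lif released by glia is known to protect injured photoreceptors.

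STAT3 binds a palindrome of TTC and GAA around 3 bases (TTCNNNGAA). Socs3 is a textbook target of this factor, so the sequence before the Socs3 start in the RefSeq promoter table (build GRCm38.p6, chr11:117969367-117969616, minus strand) is shown with the match to this motif in capitals:

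Socs3: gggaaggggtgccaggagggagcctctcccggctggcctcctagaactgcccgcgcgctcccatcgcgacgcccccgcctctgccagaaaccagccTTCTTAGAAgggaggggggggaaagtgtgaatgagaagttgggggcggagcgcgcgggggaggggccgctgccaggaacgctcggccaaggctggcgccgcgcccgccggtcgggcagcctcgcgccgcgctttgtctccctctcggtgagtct

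The match, TTCTTAGAA, ends 145 bases before that start. The table gives 1 start for Socs3, and it lies inside the annotated span of the gene rather than at its outer end. The motif reads the same on both strands. It occurred in 8.30% of the 32851 promoters of the table, each 300 bases long, and in 1 of the 13 promoters listed for 7 of the 8 genes, that of Socs3. A second motif, TAATCC on either strand, which is bound by the photoreceptor factor Crx, occurred in 7.06% of all promoters and in 0 of these 13. The arrays do not measure binding, and a match is not a bound site.

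Before the members are described, 6 arrays need to be named. The spread of values over probe sets ran from 1.34 to 1.80 (SD per array), and the 5 lowest spreads were those of ko E16 replicate 3, ko P2 replicate 4, ko P6 replicate 4 and wt P10 replicates 1 and 2. On ko 4 weeks replicate 2 a list of progenitor and dividing cell genes averaged 10.20, against 7.66 to 7.79 on the wt arrays of that stage. On that array Nrl lay at 9.05, while it lay between 5.36 and 6.48 on the other ko arrays and between 8.76 and 12.33 on the wt arrays. Rod markers were lower in ko at P2, P6, P10 and 4 weeks, and cone markers higher. At 4 weeks 9 of the 12 measured rod markers fell and 0 rose, and 9 of the 10 measured cone markers rose and 0 fell. The genotype differences of Socs3, the genotype calls of the other members and those of the wider pathway list are given with and without the 6 arrays, and the levels of marker lists with all arrays. Without the 6 arrays, wt P10 keeps replicates 3 and 4 alone and ko E16 keeps replicates 1 and 2 alone. Results of these groups without the 6 arrays rest on those few arrays.

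Socs3 was higher in ko than in wt at each of the 5 stages, and the difference was larger from P6 on. At E16 Socs3 had a log2 signal of 10.82, 10.84 and 11.02 in ko, against 9.93, 9.41, 10.13 and 9.53 in wt. At P2 it had 10.37, 10.18, 10.65 and 9.17 in ko, against 8.34, 9.52, 8.68 and 9.56 in wt. The genotypes did not overlap at E16, but at P2 ko replicate 4, one of the low-spread arrays, lay among the wt arrays. The differences were close in size, 1.15 (SE 0.40) at E16 and 1.07 (SE 0.37) at P2, which are 2.21-fold and 2.10-fold. They were 1.08 and 1.38 without the 6 arrays.

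From P6 the genotypes stood far apart. At P6 Socs3 had 10.94, 10.87, 11.09 and 9.10 in ko, against 7.69, 7.43, 6.25 and 7.15 in wt. At P10 it had 9.53, 10.41, 9.76 and 9.89 in ko, against 6.06, 6.004, 5.96 and 6.92 in wt. At 4 weeks it had 9.73, 9.13, 9.44 and 9.36 in ko, against 6.88, 5.97, 5.57 and 5.96 in wt. No ko array overlapped a wt array at these 3 stages, and the lowest ko value, at P6, was again that of a low-spread array. The differences were 3.37 at P6, 3.66 at P10 and 3.32 at 4 weeks (SE 0.37 each), or 10.4-fold, 12.7-fold and 9.995-fold. They were 3.84, 3.46 and 3.41 without the 6 arrays. The wt means at P10 and 4 weeks, 6.24 and 6.09, lie low on the scale of these arrays. In ko at P10, Nrl averaged 5.84 and was called absent. Background may therefore limit the folds at P10 and 4 weeks, although the Socs3 probe set was called present in wt P10.

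**Figure D1:**
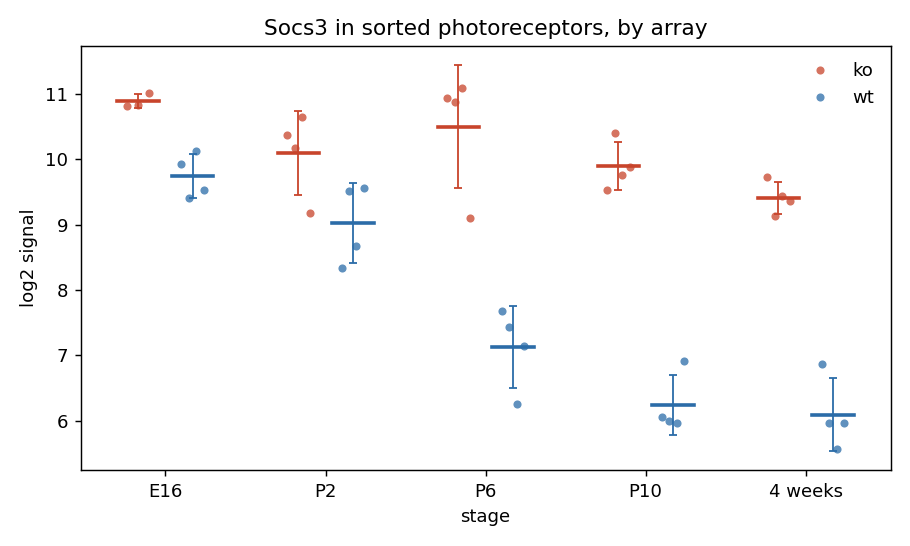
Log2 signal of Socs3 (vertical axis) on every array at the 5 stages (horizontal axis), with ko left of wt. Points are arrays, wide bars are group means and thin bars are SD (n = 3 for ko E16 and 4 for each other group); the group means of ko stay between 9.42 and 10.89, while those of wt reach 6.09 at 4 weeks.

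The course over development follows for each genotype, again without a test. Within ko, Socs3 averaged 10.89 ± 0.11 at E16 (SD, n = 3) and 10.09 ± 0.64, 10.50 ± 0.94, 9.90 ± 0.37 and 9.42 ± 0.25 at P2, P6, P10 and 4 weeks (n = 4 each). Within wt it averaged 9.75 ± 0.34, 9.02 ± 0.61, 7.13 ± 0.63, 6.24 ± 0.46 and 6.09 ± 0.55 at the same 5 stages (n = 4 each). The largest of the steps between neighbouring stages was that of wt between P2 and P6, a difference of -1.89 (P6 minus P2), whereas the same step in ko was 0.41. The other wt steps were -0.72 (P2 minus E16), -0.89 (P10 minus P6) and -0.14 (4 weeks minus P10), and the other ko steps were -0.80, -0.61 and -0.48. Ordered by mean, the groups ran from ko E16 through ko P6, ko P2, ko P10, wt E16, ko 4 weeks and wt P2 to wt P6, wt P10 and wt 4 weeks. The arrays of neighbours in this order overlapped at every place except 1, the gap of 1.89 between wt P2 and wt P6. The ko cells of 4 weeks thus lay beside wt cells of E16 and P2, 9.42 against 9.75 and 9.02.

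Of the 3 Socs3 probe sets, a pair carried the pattern. The probe set used above (1455899_x_at) was called present in all 10 columns of the authors' deposited detection calls, and 1456212_x_at in 8 of 10, the exceptions being wt P10 and the wt column headed adult. The adult columns were not assigned to the arrays of 4 weeks. On 1456212_x_at the group means of ko were 10.17, 9.12, 9.67, 9.20 and 8.61 in stage order, and those of wt were 9.03, 8.21, 6.61, 6.50 and 5.91. Its differences were 1.15, 0.90, 3.05, 2.71 and 2.69. The third probe set, 1416576_at, was called absent in every column, and its differences ran from 0.12 at P2 to 0.60 at E16. The ending x_at marks probes that may also match other transcripts, which was not tested here. The size of the difference depends on the probe set. The mean over the 3 probe sets, which includes the one called absent, differed by 2.20, 2.21 and 2.09 at P6, P10 and 4 weeks.

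**Figure D2:**
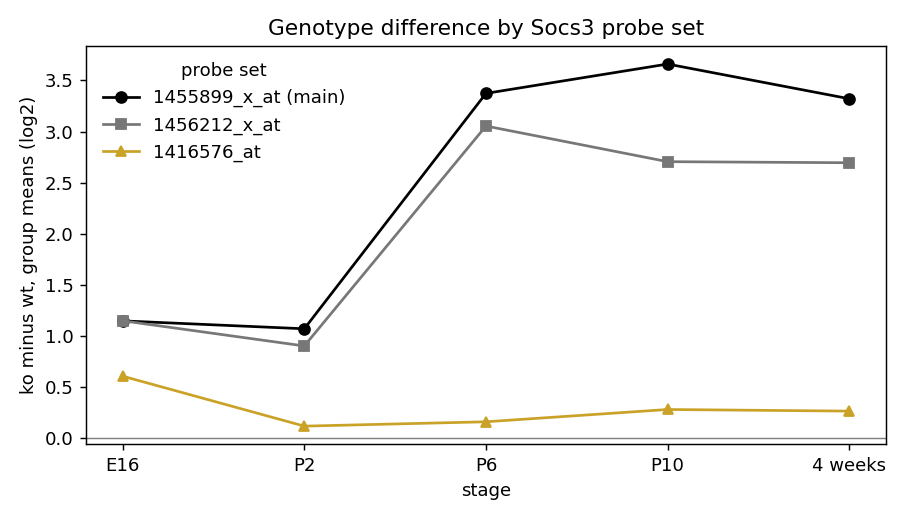
Difference between group means of ko and wt (log2, vertical axis) for the 3 Socs3 probe sets at the 5 stages (horizontal axis). Lines join the stages of a probe set; the upper pair reaches 3.66 and 3.05, and the probe set called absent in every column stays at or under 0.60.

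Socs3 is also a gene of glia and immune cells, so lists of their markers were read on the same arrays. The 14 measured Müller glia and astrocyte markers averaged 7.78 to 8.31 over the ko arrays and 7.71 to 8.14 over the wt arrays at 4 weeks, and 7.61 to 7.96 in ko against 7.65 to 7.97 in wt at P6. These ranges overlapped at both stages, as they did at P2 and P10. At E16 the list lay lower in ko without overlap, at 7.76 to 7.81 in ko against 7.82 to 8.02 in wt. Of the 14 markers Apoe alone passed at P10 (higher in ko, called absent in wt) and Aqp4 alone at 4 weeks (lower in ko). The 12 measured microglia and leukocyte markers, of which 5 had a present call in any column, averaged 6.58 to 6.97 in ko and 6.30 to 6.45 in wt at 4 weeks, and 6.42 to 6.72 in ko and 6.04 to 6.29 in wt at E16, with no overlap at either stage. At P10 they averaged 6.71 to 6.85 in ko and 6.24 to 6.76 in wt, and at P6 6.63 to 6.87 in ko and 6.27 to 6.67 in wt. Cd53, a leukocyte membrane protein, was higher in ko at E16 and P10, the complement gene C1qb at P6, and Tyrobp and Laptm5 at 4 weeks. No other gene of this list passed at those stages. In wt, Cd53 was called absent at E16 and C1qb at P6. At E16 1 of the 12 was called present in each genotype, so a part of the list signal may be background. The median difference over the 12 was 0.30, 0.002, 0.07 and 0.20 at E16, P6, P10 and 4 weeks. Tyrobp did not pass without the 6 arrays (limma adjusted p = 0.126, against 0.0434 with all arrays) or in 13 of the 39 fits that leave out 1 array. In such fits Laptm5 did not pass in 5, Cd53 at E16 in 4 and C1qb in 1. Of the 8 vascular markers 1 had a present call in any column. Cldn5 passed at E16 (lower in ko, -0.43) and Rgs5 at P10 (higher in ko, 1.23), each called absent in its dimmer group. Of the 9 measured bipolar markers, Pcp2 passed at P6 (higher in ko, 3.42) and at P10 (1.26). Without the 6 arrays Pcp2 did not pass at P10 (limma adjusted p = 0.243). Prkca passed at P2 and 4 weeks (lower in ko), and Cabp5 at 4 weeks (higher in ko). The 19 measured amacrine, horizontal and ganglion cell markers averaged 6.93 to 7.03 in ko against 7.40 to 7.60 in wt at P10. They also lay lower in ko without overlap at E16, at 7.09 to 7.35 in ko against 7.96 to 8.09 in wt, and at P6, at 6.90 to 7.03 in ko against 7.45 to 7.83 in wt. The same held at P2, at 6.98 to 7.07 in ko against 7.09 to 7.80 in wt. The progenitor and dividing cell list lay at 7.46 to 7.68 in ko against 8.04 to 9.001 in wt at P6, and at 7.17 to 7.31 in ko against 7.64 to 7.86 in wt at P10. The part of such cells in the Socs3 difference was not tested. The cone list, like Socs3, was higher in ko from P2 on, at 9.17 to 10.53 in ko against 8.03 to 8.55 in wt at P6. At 4 weeks it lay at 11.56 to 12.05 in ko against 8.43 to 9.83 in wt. Within ko the courses differed: from P2 to 4 weeks the median of the cone list went from 9.38 to 11.92, and mean Socs3 from 10.09 to 9.42. At E16, where Socs3 was already higher in ko, the cone list lay at 8.48 to 8.91 in ko against 8.86 to 9.27 in wt.

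Some genes ran closely alongside Socs3. Over the 10 group means, and among 9598 named genes with a present call, the highest Pearson correlations with Socs3 were those of Ifnar1 (0.949), a chain of the type I interferon receptor, Pank1 (0.944), which starts coenzyme A synthesis, the eye homeobox gene Six6 (0.936), the corepressor Tle3 (0.934) and Acly (0.932), which makes cytosolic acetyl-CoA. The genes and Socs3 share the same arrays, and 10 means are few points, so these values are a description. The group means of Ifnar1 spanned only 8.47 to 8.74, whereas Pank1 differed by 2.64, 2.57 and 2.57 (ko minus wt) at P6, P10 and 4 weeks. Unlike Socs3, Pank1, Six6, Tle3 and Acly were not higher in ko at E16, with differences of -0.31, -0.17, -0.30 and -0.04. Ifnar1 differed by 0.11 at that stage. Over the 39 single arrays Pank1 ranked first (0.914), and Ifnar1 ranked 228 (0.578).

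Of the receptor chains, Lifr was on average lower in ko at all 5 stages with all arrays, and passed the test at 4 weeks. Tests were moderated tests in limma with Benjamini-Hochberg adjustment over all 18193 genes, and a gene was called at an adjusted p under 0.05. At 4 weeks Lifr had 9.38, 9.91, 9.78 and 9.90 in ko, against 10.81, 10.97, 11.14 and 10.83 in wt. The genotypes did not overlap, and Lifr fell by 1.20 on the log2 scale in ko (SE 0.35, 95% interval -1.92 to -0.47, limma adjusted p = 0.0439), which is 2.29-fold. It was the 1 member of 7 called at 4 weeks, where 4.73% of all genes were called. The call rests on a small margin: with any 1 of the 8 arrays of that stage left out, the limma adjusted p lay between 0.0669 and 0.149, and with the replicate number as a block it was 0.0568. It was 2.46e-05 without the 6 arrays named above, with a difference of -1.25.

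The earlier stages gave Lifr differences of similar size that did not pass with all arrays. At P2 Lifr had 9.71, 9.53, 9.14 and 8.66 in ko, against 10.73, 10.40, 9.96 and 10.18 in wt. At P6 it had 10.14, 9.95, 10.03 and 8.94 in ko, against 11.04, 10.88, 11.16 and 10.72 in wt. The genotypes did not overlap at P2 or P6, with differences of -1.06 (limma adjusted p = 0.464) and -1.19 (limma adjusted p = 0.0924). At P10 it had 9.11, 10.001, 9.40 and 9.77 in ko, against 10.19, 9.63, 11.26 and 10.94 in wt. Here the genotypes overlapped, and the difference was -0.93 (limma adjusted p = 0.183). At E16 it had 10.19, 10.56 and 8.12 in ko, against 10.25, 10.29, 10.16 and 10.41 in wt, a difference of -0.65 (limma adjusted p = 0.408) that was 0.10 without ko replicate 3. In each of the groups that hold a low-spread array, the lowest Lifr value was that of such an array. Without the 6 arrays Lifr passed at P2, P6 and P10 as well, with limma adjusted p of 0.0152, 0.00329 and 1.84e-05, but not at E16 (0.915). The P10 result then rests on wt replicates 3 and 4 alone, 11.26 and 10.94, which lie above the wt arrays left out.

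With all arrays, all 5 ko group means of Lifr, 9.26 to 9.76, lay below all 5 wt group means, 10.28 to 10.95. At E16 this rests on the low-spread ko replicate 3, at 8.12, beside 10.19 and 10.56 on the other ko arrays. Without replicate 3 the E16 difference was 0.10. Whether the genotype difference changed with stage was tested over all stages at once, and Lifr did not pass with all arrays (limma F test, adjusted p = 0.942). Without the 6 arrays Lifr did pass that F test. The pattern came from 1 of 3 Lifr probe sets, 1454984_at, which was called present in all 10 columns. The other probe sets, 1450207_at and 1425107_a_at, were called present in 0 and 3 of 10 columns and differed by -0.32 to 0.23 between genotypes. With the mean of the 3 probe sets Lifr did not pass at 4 weeks (difference -0.38, limma adjusted p = 0.0674). The rod list was lower in ko where Lifr was, at 8.71 to 8.99 in ko against 11.94 to 12.14 in wt at 4 weeks. Within wt, from E16 to 4 weeks, the median of the rod list went from 7.97 to 12.05, and mean Lifr from 10.28 to 10.94. The part of the rod list in the Lifr difference was not tested.

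**Figure D3:**
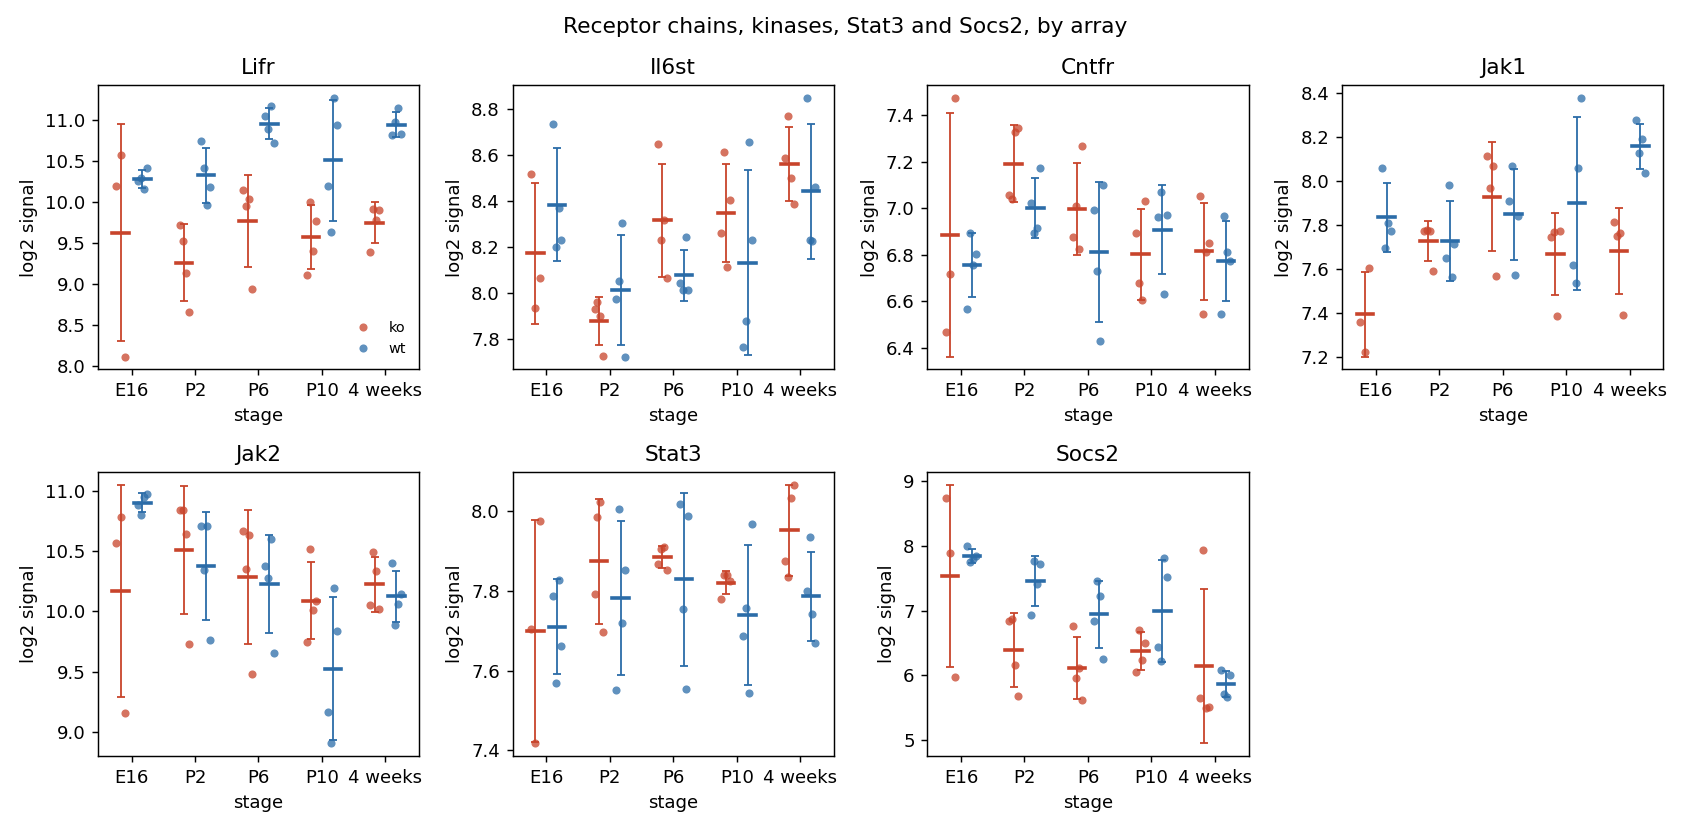
Log2 signal (vertical axes, each on its own scale) of Lifr, Il6st, Cntfr, Jak1, Jak2, Stat3 and Socs2 on every array at the 5 stages (horizontal axes), with ko left of wt, group means and SD. Lifr arrays of ko lie under those of wt at P2, P6 and 4 weeks, while Stat3 stays between 7.42 and 8.07 on every array.

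The shared chain Il6st did not pass between genotypes at any stage. At 4 weeks it had 8.59, 8.77, 8.50 and 8.39 in ko, against 8.85, 8.23, 8.23 and 8.46 in wt. At P6 it had 8.65, 8.23, 8.32 and 8.07 in ko, against 8.04, 8.01, 8.24 and 8.01 in wt. On the probe set used, 1452843_at, the genotypes overlapped at all 5 stages, and the differences ran from -0.21 at E16 to 0.24 at P6. Its 95% intervals from all stages lay within -0.59 and 0.59. The probe set 1437303_at, called present in 5 of 10 columns, differed by 0.28, 0.19, 0.10, 0.48 and 0.07 in stage order. At E16 and P2 its sign was opposite to that of 1452843_at. The probe set 1460295_s_at, called present in all 10 columns, differed by -0.06 to 0.22, and 1421239_at was present in 0. Cntfr, the attachment chain for CNTF, had 7.05, 6.54, 6.81 and 6.85 in ko at 4 weeks, against 6.55, 6.96, 6.81 and 6.77 in wt. Its differences ran from -0.11 at P10 to 0.19 at P2, and its 95% intervals lay within -0.44 and 0.52. The interval bounds of both chains lay closer to 0 than every Socs3 difference from P6 on.

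Stat3, the factor that the receptors activate, was the flattest of the 8 genes by the probe sets used. Its group means spanned 0.25 over the 10 groups, against 4.80 for Socs3, and single arrays lay between 7.42 and 8.07. At P10 it had 7.78, 7.84, 7.84 and 7.83 in ko, against 7.69, 7.76, 7.54 and 7.97 in wt. At 4 weeks it had 7.87, 7.83, 8.03 and 8.07 in ko, against 7.80, 7.93, 7.74 and 7.67 in wt. These overlapped, and no Stat3 difference between genotypes passed; the largest was 0.17 at 4 weeks (limma adjusted p = 0.771), and the 95% intervals lay within -0.26 and 0.40. The arrays measure Stat3 RNA, not phosphorylated protein. The Stat3 probe set used, 1460700_at, was called present in 2 of 10 columns, so a part of its signal may be background. Of the other Stat3 probe sets, 1424272_at was called present in 9 columns and differed by -0.28 to 0.24 over the 5 stages, ko minus wt. The probe set 1459961_a_at was present in 4 columns and differed by 0.56 at P10, and 1426587_a_at was present in 0.

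Of the kinases, Jak2 was called present in all 10 columns and did not pass between genotypes. It had 10.05, 10.49, 10.34 and 10.02 in ko at 4 weeks, against 10.40, 9.89, 10.06 and 10.14 in wt. At P10 it had 9.75, 10.52, 10.01 and 10.08 in ko, against 9.17, 8.91, 10.19 and 9.83 in wt. At E16 it had 10.56, 10.79 and 9.16 in ko, against 10.89, 10.80, 10.95 and 10.98 in wt. The E16 groups did not overlap, but the lowest ko value was that of a low-spread array, and the lower pair of wt values at P10 came from such arrays as well. The Jak2 differences, -0.73 at E16 and 0.56 at P10, did not pass (limma adjusted p = 0.313 and 0.430).

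The Jak1 probe set used, 1433803_at, was called absent in all 10 columns, so its signal may lie at background and no fold is given. At 4 weeks it had 7.82, 7.75, 7.77 and 7.39 in ko, against 8.28, 8.13, 8.19 and 8.04 in wt. The genotypes did not overlap, and the difference of -0.48 (SE 0.15) missed the threshold (limma adjusted p = 0.0651). At E16 it had 7.36, 7.22 and 7.60 in ko, against 8.06, 7.70, 7.81 and 7.77 in wt, which did not overlap either (difference -0.44, limma adjusted p = 0.197). Jak1 passed without the 6 arrays at E16, P10 and 4 weeks, with differences of -0.54, -0.55 and -0.50. Another Jak1 probe set, 1433805_at, was called present in 2 of 10 columns, and with all arrays it differed by 0.55 at P10, opposite in sign to the -0.23 of 1433803_at at that stage. The direction of Jak1 at P10 therefore depends on the probe set.

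Socs2, an inhibitor best known from growth hormone signalling, did not share the pattern of Socs3. At P2 it had 6.83, 6.87, 6.17 and 5.68 in ko, against 6.93, 7.77, 7.41 and 7.73 in wt. At P6 it had 6.76, 5.96, 6.11 and 5.61 in ko, against 6.84, 7.45, 7.22 and 6.25 in wt. At P10 it had 6.05, 6.71, 6.23 and 6.50 in ko, against 6.43, 6.22, 7.81 and 7.52 in wt. The values of ko were on average the lower ones at these stages, without overlap at P2, but the differences of -1.07, -0.83 and -0.62 did not pass (limma adjusted p = 0.875, 0.551 and 0.587). They are those of 1418507_s_at, called present in 9 of 10 columns. The probe set 1441476_at, present in 8, differed by 0.11, 0.20 and -0.04. Of those present in 2 columns, 1446085_at differed by -0.37, -0.33 and -0.23, and 1449109_at by -0.12, 0.02 and 0.13. The rest were present in 0. The direction of Socs2 therefore depends on the probe set.

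At E16 Socs2 had 8.74, 7.89 and 5.98 in ko, against 8.01, 7.75, 7.80 and 7.84 in wt. At 4 weeks it had 5.64, 7.93, 5.49 and 5.51 in ko, against 6.08, 5.72, 5.67 and 5.998 in wt. A single array stood apart in ko at each of these stages, the low-spread replicate 3 at E16 and replicate 2 at 4 weeks, the array with the high progenitor list. Without the 6 arrays the differences from E16 to 4 weeks were 0.46, -0.84, -0.67, -1.29 and -0.32, and the one at P10 passed (limma adjusted p = 0.0051).

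**Figure D4:**
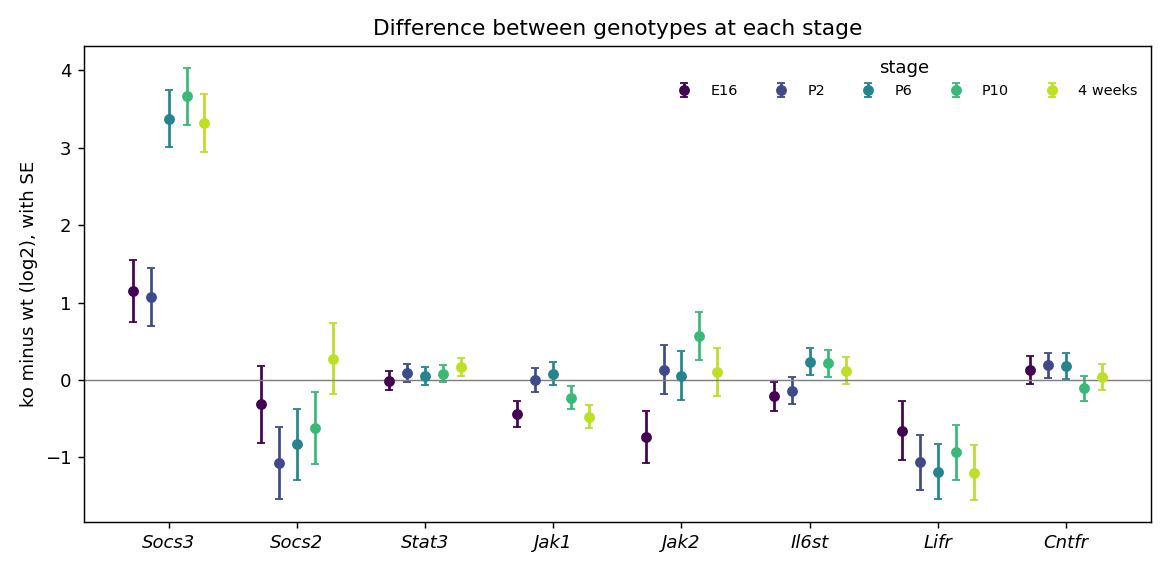
Difference between ko and wt group means (log2, vertical axis) with its SE for the 8 genes (horizontal axis) at the 5 stages (colours). Socs3 stands above 3 from P6 on, Lifr lies between -0.65 and -1.20 at all stages, and the differences of Stat3, Il6st and Cntfr lie between -0.21 and 0.24.

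Counted together, 0 of the 7 tested members were called between genotypes at each of the first 4 stages, and 1 at 4 weeks. At an unadjusted p under 0.05 in the same limma fit the counts were 2, 2, 1, 1 and 2. The shares of all genes called, from E16 to 4 weeks, were 1.13%, 0.346%, 1.54%, 2.81% and 4.73%. Without the 6 arrays 1 member was called at E16 (Jak1), 1 at P2 and 1 at P6 (Lifr), 3 at P10 (Lifr, Jak1 and Socs2) and 2 at 4 weeks (Lifr and Jak1), where the shares of all genes called were 3.71%, 1.13%, 4.16%, 6.58% and 7.63%. The test of a genotype difference that varies with stage called 0 of 7 members with all arrays (1 at an unadjusted p under 0.05) and 3.14% of all genes. With the 6 arrays left out it called 3 members (Lifr, Jak1 and Socs2) and 7.13% of all genes.

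Between neighbouring stages 0 of the 7 members were called in any of the 8 steps with all arrays. All genes were called at 1.00%, 0.660%, 1.37% and 1.04% in the ko steps and at 3.97%, 0.148%, 0.352% and 5.34% in the wt steps, each in stage order. At an unadjusted p under 0.05, limma gave 2, 1, 0 and 0 members in the ko steps and 1, 0, 1 and 1 in the wt steps. The largest step among the 7 was that of Socs2 in ko at P2 against E16, -1.15 (limma adjusted p = 0.322), and the next was Socs2 in wt at 4 weeks against P10, -1.13 (limma adjusted p = 0.169). With the 6 arrays left out, the P2 step of ko called 5 of 7 members, Socs2, Stat3, Jak1, Lifr and Cntfr, but also 37.3% of all genes. The P2 step of wt then called Jak2 and 44.2% of all genes, and the last wt step called Socs2 and 3.17% of all genes.

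A wider list of 75 genes of the pathway, chosen with earlier results of these arrays known, gave the setting, and 69 were measured. Of the 69, 31 had a present call in any column, so the signal of others may be background. No detection call was assigned to the arrays of 4 weeks. The list covered ligands, other receptors, other kinases and STATs, other inhibitors and known STAT3 targets. Between genotypes 0 of 69 were called at E16, P2 and P6 (8, 1 and 5 at an unadjusted p under 0.05 in limma), 1 at P10 and 7 at 4 weeks. Of all genes, 2.81% were called at P10 and 4.73% at 4 weeks. The 7 are 10.1% of the 69, with a median difference over the list of 0.05 (log2) against 0.03 over all genes. With the 6 arrays left out, 0 of 69 were called at E16, 1 at P2 (Fos, lower in ko), 3 at P6 (Cish and Bcl2l1 higher, Fos lower), 1 at P10 (Grb10, lower) and 6 at 4 weeks. The last are 8.70% of the 69, where 7.63% of all genes were called. The 6 measured ligands of the gp130 family had no present call in any column, and 0 of 6 were called at any stage. Of the 16 other cytokine receptors 0 were called, of the 7 other kinases and STATs 1 rose at 4 weeks, and of the 16 other inhibitors 3 rose and 1 fell at that stage. Of the 24 STAT3 targets 1 rose at P10, and 1 rose and 1 fell at 4 weeks.

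Among the kinases and STATs, Stat5b, the STAT of growth hormone and prolactin receptors, rose at 4 weeks. It had 8.27, 8.23, 8.55 and 8.33 in ko, against 7.74, 7.32, 7.27 and 7.77 in wt. The genotypes did not overlap, and the difference was 0.82 (SE 0.13, limma adjusted p = 3.55e-05), while at E16, P2, P6 and P10 it lay between -0.04 and 0.22. The genotype difference of Stat5b varied with stage by the F test, as did those of Ptpn13, Fos and Vegfa. These are 4 of 69 genes, where 3.14% of all genes were called. With the 6 arrays left out the F test called 5 of 69 (Stat5b, Ptpn13, Fos, Socs5 and Grb10) and 7.13% of all genes, and Vegfa no longer passed.

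Among the inhibitors, a pair of tyrosine phosphatases rose at 4 weeks. Ptpn13 had 6.91, 7.05, 7.38 and 7.02 in ko, against 6.14, 6.58, 6.44 and 6.28 in wt (difference 0.73, limma adjusted p = 0.000324). Ptpn1, which dephosphorylates JAK2 and other kinases, had 7.70, 8.01, 8.17 and 7.88 in ko, against 7.44, 7.31, 7.29 and 7.43 in wt (difference 0.57, limma adjusted p = 0.00275). Neither overlapped between genotypes. Socs5, another SOCS protein and named here after its values were seen, had 9.49, 8.97, 9.46 and 9.33 in ko, against 8.92, 8.48, 8.51 and 9.05 in wt (difference 0.57, limma adjusted p = 0.0345). Grb10, an adaptor that binds the insulin receptor, had 7.73, 11.92, 8.47 and 8.60 in ko, against 11.55, 11.73, 11.87 and 11.51 in wt. The value of 11.92 is that of the array with the high progenitor list and lies above all wt arrays, and the other ko arrays lie below them. Grb10 fell by 2.49 on the log2 scale (SE 0.50, limma adjusted p = 0.00106), and its earlier differences were -0.18, -0.39, -0.88 and -1.01 from E16 to P10.

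Of the STAT3 targets, Vegfa, a vascular growth factor, had 8.37, 9.47, 9.16 and 9.03 in ko at 4 weeks, against 8.79, 7.76, 7.95 and 8.09 in wt (difference 0.86, limma adjusted p = 0.0411). Bcl6, a transcriptional repressor, had 8.79, 9.32, 9.79 and 10.10 in ko, against 10.59, 10.32, 10.65 and 9.62 in wt (difference -0.80, limma adjusted p = 0.0499). Both overlapped between genotypes, and neither passed without the 6 arrays (limma adjusted p = 0.0991 and 0.0668). The immediate early gene Fos had 12.24, 12.43, 12.19 and 12.34 in ko at P10, against 9.98, 9.51, 11.53 and 11.50 in wt (difference 1.67, limma adjusted p = 0.00764). The wt values under 10 at P10 are those of the low-spread arrays, and without the 6 arrays the limma adjusted p was 0.184. Fos differed by -0.97, -1.50 and -1.38 at E16, P2 and P6, opposite in sign to P10, and these did not pass with all arrays. Without the 6 arrays Fos passed at P2 (-1.41, limma adjusted p = 0.013), at P6 (-1.04, limma adjusted p = 0.0456) and at 4 weeks (1.02, limma adjusted p = 0.0323). The 6 genes then called at 4 weeks were Fos and 5 of the 7 called with all arrays, Stat5b, Socs5, Ptpn1, Grb10 and Ptpn13.

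**Figure D5:**
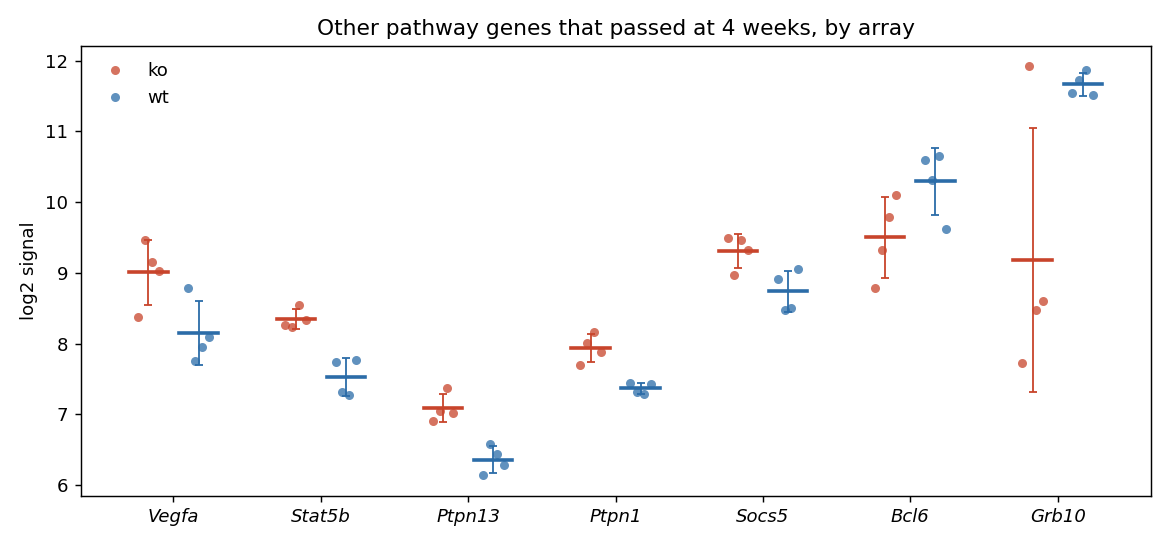
Log2 signal (vertical axis) on every array of 4 weeks for the 7 pathway genes that passed at that stage (horizontal axis), with ko left of wt, group means and SD (n = 4 each). Stat5b, Ptpn13 and Ptpn1 do not overlap between genotypes, and 1 ko array of Grb10 lies at 11.92, above all wt arrays.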

How the data were processed

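Per the labels, RNA of sorted cells was amplified and biotin-labelled with the NuGEN kit. The authors deposited log2 values for 45101 probe sets on 39 arrays, and the submitters' processing notes name RMA, with no version or settings. They also deposited detection calls, a text value (present or absent) with 1 column per genotype and stage; how the replicates entered them is not given in the sources used here. Of the probe sets, 34945 were paired with 1 gene in the platform annotation, 932 with several and 9160 with none, and 64 were controls. Entrez identifiers of 34741 matched RefSeq, which changed 0 symbols. Nothing further was normalized or filtered. The highest correlation between 2 arrays was 0.995. Precision is limited by how few arrays each group has.

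A mean per group was fitted over all arrays in limma 3.58.1 (R 4.3.3) with empirical Bayes moderation, on 29 residual plus 2.81 prior degrees of freedom. Contrasts were ko minus wt at each stage, each stage minus the one before within a genotype, and an F test of the genotype difference against that at E16. Each p was adjusted (Benjamini-Hochberg) over all genes of its contrast, and the fit was tested on simulated arrays. Intervals of 95% come from the moderated t of the same fit, unadjusted.

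The members and lists were chosen with earlier results of these data known. Named were all members, up to 4 called pathway genes in each direction at each genotype contrast, and the 5 genes most like Socs3. Socs5 and the genes of other cell types were named after their values were seen. Genes of the pathway list without a measured probe set were not analysed here.

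Alternatives were quantile normalization, median centring, a filter on detection calls, the mean of a gene's probe sets, limma-trend, array weights, the fit without the 6 doubted arrays that the text above names, only the arrays of the groups compared, a replicate block and each array left out in turn. Residuals of same-numbered arrays correlated above 0.1 in every pair for 2 of the contrasts, ko P2 minus ko E16 (0.299 to 0.743 over 3 pairs) and ko P6 minus ko P2 (0.127 to 0.841 over 4). In the other contrasts not every pair lay above 0.1, which does not show that the same-numbered arrays are unrelated there.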

Additional observations from a re-analysis of the deposited data

Results flagged for a closer look

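Of 72 groups of 4 arrays of the 8 genes, 8 held an array far from the other arrays of its group relative to the group's range, where chance gives about 1 in 20. Socs3 lay at 9.10 on ko P6 replicate 4, against 10.87 to 11.09 on the other arrays of that group, and Lifr lay at 8.94 on the same array, against 9.95 to 10.14. That array is among the 5 of lowest spread. Socs3 lay at 6.92 on wt P10 replicate 4, against 5.96 to 6.06 on the others. Socs2 lay at 7.93 on ko 4 weeks replicate 2, against 5.49 to 5.64 on the others, and that array also had the high progenitor list. Jak1 lay at 7.59 on ko P2 replicate 4 (others 7.77 to 7.78), at 7.39 on ko P10 replicate 3 (others 7.75 to 7.77) and at 7.39 on ko 4 weeks replicate 4 (others 7.75 to 7.82). Il6st lay at 8.24 on wt P6 replicate 3, against 8.01 to 8.04 on the others.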

How the results depend on the processing

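The genotype differences of Socs3 kept their direction in every fit run, and their sizes with one array left out ran from 1.03 to 1.27 at E16, 0.84 to 1.38 at P2, 3.08 to 3.84 at P6, 3.49 to 3.89 at P10 and 3.15 to 3.58 at 4 weeks. Lifr stayed lower in ko at P2, P6, P10 and 4 weeks in every fit, and its sign at E16 turned without ko E16 replicate 3. Its call at 4 weeks held in 20 of the 39 fits that leave out an array, was lost with the mean of probe sets (difference -0.38, limma adjusted p = 0.0674) and was lost under the replicate block (limma adjusted p = 0.0568). Lifr passed at P6 and P10 without ko E16 replicate 3 (limma adjusted p = 0.0133 and 0.0397). Jak1 passed at 4 weeks under median centring and quantile normalization and in 3 of the 39 fits, without ko P6 replicate 4, wt P10 replicate 2 or wt P10 replicate 4. Socs2, Lifr and Cntfr passed in the P2 step of ko without ko E16 replicate 3, where 7398 genes were called, and Il6st passed in the last wt step without wt P10 replicate 3.

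Counts of all genes called moved with the choice and the weight of single arrays. Without the 6 doubted arrays they were 675, 205, 757, 1197 and 1389 between genotypes in stage order, against 205, 63, 281, 512 and 860 with all arrays. They were 6789, 620, 1096 and 595 in the ko steps, against 182, 120, 250 and 189, and 8041, 297, 389 and 577 in the wt steps, against 722, 27, 64 and 971. The F test gave 1297, against 571. Members called were then 1, 1, 1, 3 and 2 between genotypes, 5 in the P2 step of ko, 1 each in the first and last wt steps and 3 by the F test. With array weights the genotype counts were 2247, 837, 4193, 7935 and 2924, the ko steps 10908, 6001, 4138 and 1917, the wt steps 9422, 665, 5137 and 10433 and the F test 8276. Members called were then 1, 1, 2, 3 and 3 between genotypes, 5, 3, 2 and 0 in the ko steps, 1, 1, 3 and 5 in the wt steps and 5 by the F test. With so large a share of all genes called, these member counts say little about the members.

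Quantile normalization gave 179, 706 and 941 genes at P2, P6 and P10, 363, 386, 766 and 323 in the ko steps, 396, 68 and 258 in the first 3 wt steps and 1023 by the F test. It called 1 member each at P2, P6 and P10, 2 at 4 weeks and 1 in the P6 step of ko. Fits of only the groups compared gave 17, 38 and 210 genes at E16, P2 and P10. The mean of probe sets called 10 genes in the P6 step of wt, 1 member at P10, 0 at 4 weeks and 1 in the last wt step. Median centring called 2 members at 4 weeks. The replicate block called 0 members at 4 weeks and moved no other member count and no count of all genes by over 1.5 times, with 146 genes against 182 in the P2 step of ko and 119 against 120 in its P6 step. The causes of these shifts were not tested.

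With one array left out, the counts of genes called between genotypes ran from 60 to 507, 26 to 119, 147 to 393, 293 to 1536 and 712 to 1030 in stage order. They ran from 17 to 7398, 55 to 280, 97 to 427 and 112 to 247 in the ko steps, from 128 to 4651, 12 to 45, 35 to 249 and 479 to 3963 in the wt steps, and from 454 to 1018 by the F test. The highest of these came without ko E16 replicate 3 in the P2 steps of ko and wt, and without wt P10 replicate 3 at P10, in the last wt step and in the F test. Members called ran from 0 to 0 at E16 and P2, 0 to 1 at P6 and P10, 0 to 2 at 4 weeks, 0 to 3 in the P2 step of ko and 0 to 1 in the last wt step. Likeness to Socs3 over arrays was 0.862 for Six6, 0.790 for Tle3 and 0.727 for Acly. Signal over background limits Jak1, Stat3, the third Socs3 probe set, and pathway and marker genes called absent in a group compared. Groups of 3 or 4 arrays limit all values.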
